A study of Homo sapiens with 11 samples.

Results

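The mitochondrial ribosomal protein genes are nuclear genes whose proteins are made in the cytosol, imported into mitochondria and built into the mitochondrial ribosome. Their members were the 76 gene symbols of the deposited tables that begin with MRPL or MRPS followed by a number and at most a letter A, B or C, of 23608 symbols in all. By symbol, 47 belong to the large subunit and 29 to the small subunit. RNA sequencing had been done in A549, a widely used cell line from a human lung adenocarcinoma. The cells had been treated with cigarette smoke condensate (CSC), the collected particulate matter of cigarette smoke, at a labelled dose of 20 µM, or with its vehicle DMSO, a solvent. The 4 groups were CSC for 48 hours (3 libraries), DMSO for 48 hours (2 libraries, replicates 2 and 3), CSC for 2 weeks (3 libraries) and DMSO for 2 weeks (3 libraries). A molar dose is not defined for a mixture, so it is quoted as labelled. All groups were the same line, without genetic change, so the data describe a cultured tumour line and no lung tissue.

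The mitochondrial ribosome translates the few messages of the mitochondrial genome, which encode core subunits of the respiratory chain and of ATP synthase. Its RNA comes from the mitochondrial genome, whereas its proteins, like most respiratory chain subunits, come from nuclear genes, so that supply from the nucleus and the cytosol has to match the mitochondrial genome. The small subunit reads the messenger RNA and the large subunit joins amino acids and passes the chain toward the inner membrane. Many of the proteins descend from bacterial ribosomal proteins, and others are found only in mitochondria. Of the 76 genes, 46 were listed as encoding a protein of a bacterial family (30 large and 16 small). The other 30 (17 large and 13 small), MRPS18A among them, are called mitochondria-specific below, by absence from that list alone. Structures of the human ribosome place the products of MRPS18A and MRPS30 in the large subunit despite their symbols. MRPS36 is now known as a component of the α-ketoglutarate dehydrogenase complex, and its product is not found in the ribosome.

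Promoters of these genes are known for sites of ETS-family factors such as GABP, of YY1 and of NRF1. The windows below show how those letters are placed in some genes named in the results, each of which holds a match. RefSeq promoters, of 250 bases before and 50 after the gene start on GRCh38.p14, matched 67 of the 76 genes. MRPL2, MRPL10, MRPL13, MRPL15, MRPL21, MRPL23, MRPL35, MRPS28 and MRPS36 had no match. The letters searched on both strands were CCGGAAG for ETS, AAGATGGC for YY1, GCGCATG followed by CGC for the NRF1 core, and GCGCATG alone for a partial NRF1 site, which lies within the core. Capitals mark the matches in either orientation, and each window is given 5′ to 3′ on the gene's strand.
MRPL51, chr12:6493213-6493512, minus strand: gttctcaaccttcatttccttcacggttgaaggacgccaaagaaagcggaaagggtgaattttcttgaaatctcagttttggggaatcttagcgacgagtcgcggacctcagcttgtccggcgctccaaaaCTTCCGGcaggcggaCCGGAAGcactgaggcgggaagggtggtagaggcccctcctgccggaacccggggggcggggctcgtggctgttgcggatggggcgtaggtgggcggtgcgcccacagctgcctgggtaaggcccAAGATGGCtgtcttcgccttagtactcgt
MRPL17, chr11:6683291-6683590, minus strand: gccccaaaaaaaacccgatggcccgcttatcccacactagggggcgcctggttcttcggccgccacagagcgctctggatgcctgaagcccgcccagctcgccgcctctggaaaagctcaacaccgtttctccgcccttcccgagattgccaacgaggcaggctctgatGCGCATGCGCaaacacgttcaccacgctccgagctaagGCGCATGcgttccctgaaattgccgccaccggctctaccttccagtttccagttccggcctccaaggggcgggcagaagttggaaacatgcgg
MRPL40, chr22:19432295-19432594, plus strand: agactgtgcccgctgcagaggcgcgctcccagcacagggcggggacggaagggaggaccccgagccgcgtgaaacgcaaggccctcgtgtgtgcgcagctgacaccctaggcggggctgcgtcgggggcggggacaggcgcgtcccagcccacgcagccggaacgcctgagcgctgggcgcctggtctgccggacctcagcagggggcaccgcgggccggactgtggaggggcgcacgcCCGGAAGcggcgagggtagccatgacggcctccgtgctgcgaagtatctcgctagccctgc
MRPL50, chr9:101398569-101398868, minus strand: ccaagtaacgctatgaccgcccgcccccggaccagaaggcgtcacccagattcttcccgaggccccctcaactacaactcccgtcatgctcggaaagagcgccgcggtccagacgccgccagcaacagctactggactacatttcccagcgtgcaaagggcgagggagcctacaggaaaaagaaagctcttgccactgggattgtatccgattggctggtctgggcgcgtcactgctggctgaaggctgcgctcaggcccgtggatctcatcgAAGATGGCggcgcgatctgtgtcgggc
MRPS18B, chr6:30617590-30617889, plus strand: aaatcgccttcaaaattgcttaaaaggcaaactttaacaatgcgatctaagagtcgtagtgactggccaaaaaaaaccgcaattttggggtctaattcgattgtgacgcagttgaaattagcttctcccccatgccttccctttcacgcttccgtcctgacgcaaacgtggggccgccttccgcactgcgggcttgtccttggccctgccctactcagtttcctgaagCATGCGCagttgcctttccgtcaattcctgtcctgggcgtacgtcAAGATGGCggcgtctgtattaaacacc
MRPS26, chr20:3045802-3046101, plus strand: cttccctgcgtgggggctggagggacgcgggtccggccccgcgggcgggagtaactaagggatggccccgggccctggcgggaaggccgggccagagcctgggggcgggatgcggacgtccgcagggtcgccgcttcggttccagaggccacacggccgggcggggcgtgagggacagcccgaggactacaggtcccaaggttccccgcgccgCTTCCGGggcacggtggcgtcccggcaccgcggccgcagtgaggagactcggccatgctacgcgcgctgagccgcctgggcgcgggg
MRPS34, chr16:1773085-1773384, minus strand: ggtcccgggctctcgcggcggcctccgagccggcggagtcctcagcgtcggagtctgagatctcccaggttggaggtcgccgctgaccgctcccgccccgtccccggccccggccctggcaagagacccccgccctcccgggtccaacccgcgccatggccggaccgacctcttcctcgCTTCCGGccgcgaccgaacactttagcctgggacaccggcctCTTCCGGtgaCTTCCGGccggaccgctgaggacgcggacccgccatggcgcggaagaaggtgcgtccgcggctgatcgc
The genes MRPL51, MRPL17 and MRPL40 were called in CSC cells over time, MRPS18B and MRPS26 stood near the threshold at 2 weeks, MRPS34 is among the highest of the small subunit, and MRPL50 had the lowest change of all members at 2 weeks.

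MRPL51 has matches to ETS in both orientations and to YY1 after its start, and MRPS34 has 3 ETS matches. MRPL17 holds the NRF1 core and a further partial site. The ETS letters were in 28 of the 67 member promoters (41.8%), against 19.7% of 8990 promoters of other tested genes and 10.7% of all 27305 promoters. The YY1 letters were in 20 member promoters (29.9%), against 5.61% of the other tested genes and 3.03% of all promoters. The partial NRF1 site was in 7 (10.4%), against 7.84% and 4.67%, and the NRF1 core in 1 (1.49%), against 2.39% and 1.36%. Any of the partial NRF1, ETS and YY1 letters were in 42 of the 67 (62.7%), against 29.5% and 16.7%. Among the promoters without a match were those of MRPL12, MRPL37, MRPL44, MRPS14 and MRPS35. Both subunits held the ETS letters at similar shares, 16 of 40 large subunit promoters (40%) and 12 of 27 small subunit promoters (44.4%). The same was seen for YY1, with 12 (30%) and 8 (29.6%). YY1 matches lay mostly after the start, 15 of 21 in members (71.4%) and 333 of 526 in the other tested genes (63.3%). ETS matches lay closer before it, with 20 of 37 (54.1%) in the 50 bases upstream in members and 810 of 2179 (37.2%) in the other tested genes. These are counts of letters and were not tested for binding.

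Of the libraries as a whole, the FPKM (fragments per kilobase of transcript, scaled to the mapped fragments of a library) summed to 338507 to 484053, highest in CSC 2 weeks replicate 1. As estimated from the deposited bounds, CSC 2 weeks replicate 2 was 2.82 times as deep as the shallowest library and the other libraries at most 1.55 times. The depth in reads is unknown. In that replicate 28 of the 82 lines of members had FPKM above their own upper bound, against 4 to 15 in the other libraries. The estimate of its depth is therefore uncertain. The RNAs RMRP and RPPH1 held 19.2% to 24.4% of the sum. The epithelial keratins KRT8, KRT18 and KRT7 stood at 573 FPKM or more in every library, EPCAM at 2.59 to 8.15 FPKM and CDH1 at 2.51 to 11.1 FPKM. PTPRC, CD3E, PECAM1 and CDH5 reached at most 0.0916 FPKM, DCN was listed at 0 in all 11 libraries, LUM reached at most 0.485 FPKM and COL1A1 stood at 3.73 to 11.5 FPKM. These markers differed between the groups. KRT8 averaged 1107 ± 159 FPKM in CSC cells and 1644 ± 115 FPKM in DMSO cells at 2 weeks, and KRT18 1178 ± 220 FPKM in CSC cells and 1669 ± 146 FPKM in DMSO cells (SD, n = 3 each; adjusted p = 0.053 and 0.090, limma). At 2 weeks against 48 hours, KRT8 (log2 change 0.76), KRT18 (0.78) and COL1A1 (0.80) rose in CSC cells and COL1A1 (1.08) in DMSO cells by limma's test, and their part in the members' differences was not tested. No pair of libraries held identical values (0 pairs). The labels do not say that replicates came from separate cultures, so a p-value here reflects the spread among these libraries alone, which may be technical.

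All 76 genes were expressed in every library, the lowest single value being 4.27 FPKM (MRPS18C in DMSO 2 weeks replicate 3). Averaged over the 11 libraries their levels ran from 5.32 FPKM for MRPL22, which lines the exit tunnel of the large subunit, to 92.7 FPKM for MRPL12, which forms its flexible stalk, a 17.4-fold range. The median member stood at 21.9 FPKM, against 7.88 FPKM for the 12506 genes tested, and 20.0% of the tested genes lay above it. The medians were 21.4 FPKM in the large and 25.9 FPKM in the small subunit, and 23.2 FPKM in bacterial families against 20.7 FPKM in mitochondria-specific proteins. Of the 76, 9 stood at 50 FPKM or more and 8 under 10 FPKM, and the 10 highest held 32.1% of the summed FPKM. In the large subunit the highest were MRPL12, MRPL33 and MRPL51 and the lowest MRPL30, MRPL2 and MRPL22. In the small subunit the highest were MRPS21, MRPS12, which sits at the decoding centre, and MRPS34, and the lowest MRPS25, MRPS18C and MRPS14. The coefficient of variation over the 11 libraries was 9.7% to 34.3%, with a median of 17.2%. Because these are bulk libraries, fewer cells that express a gene and less of its RNA in each cell cannot be told apart. Of the members, 13 overlap another gene's locus, among them MRPS12 with SARS2, MRPS24 with the readthrough gene URGCP-MRPS24, MRPS18C with FAM175A and MRPS25 with NR2C2, and the strand setting is not given in the sources used here, so their reads may be shared.

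After 48 hours of CSC the mitochondrial ribosomal genes stood close to the vehicle. MRPL50, a mitochondria-specific protein of the large subunit, had 20.8, 23.0 and 20.6 FPKM in CSC cells, against 24.8 and 30.6 FPKM in DMSO cells. Every CSC library lay below both DMSO libraries. Its log2 difference of -0.35 ± 0.15 (SE) was the largest of the members in either direction and did not pass the test (adjusted p = 0.55, limma). MRPS18A had 9.96, 10.2 and 10.1 FPKM in CSC cells, against 8.32 and 8.47 FPKM in DMSO cells. The CSC libraries all lay above, with a log2 difference of 0.25 ± 0.11 (SE) and an adjusted p of 0.58 in limma.

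MRPS14, the counterpart of a conserved protein of the small subunit head, had 4.30, 5.40 and 5.06 FPKM in CSC cells at 48 hours, against 5.70 and 6.34 FPKM in DMSO cells. MRPL40, a mitochondria-specific protein of the large subunit, had 15.1, 15.4 and 10.8 FPKM in CSC cells, against 16.2 and 16.5 FPKM in DMSO cells. For both genes every CSC library lay below both DMSO libraries, and their adjusted p were 0.67 and 0.70 in limma. Of the 76 genes, limma called 0 higher, against 0.104% of all tested genes, and 0 lower, against 0.184%. At an unadjusted p under 0.05, 1 member was higher and 1 lower, against 8.49% of all tested genes in either direction. The log2 differences were positive for 49 members, 64.5% against 50.4% of all tested genes, and their median was 0.06 against 0.00 for all tested genes. With the replicate number as a block the median was -0.01, against -0.02 for all tested genes. CSC libraries lay wholly above DMSO libraries for 8 members (10.5%), against 11% of all genes, and wholly below for 6 (7.89%), against 11.8%, shares near those of all genes.

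**Figure D1:**
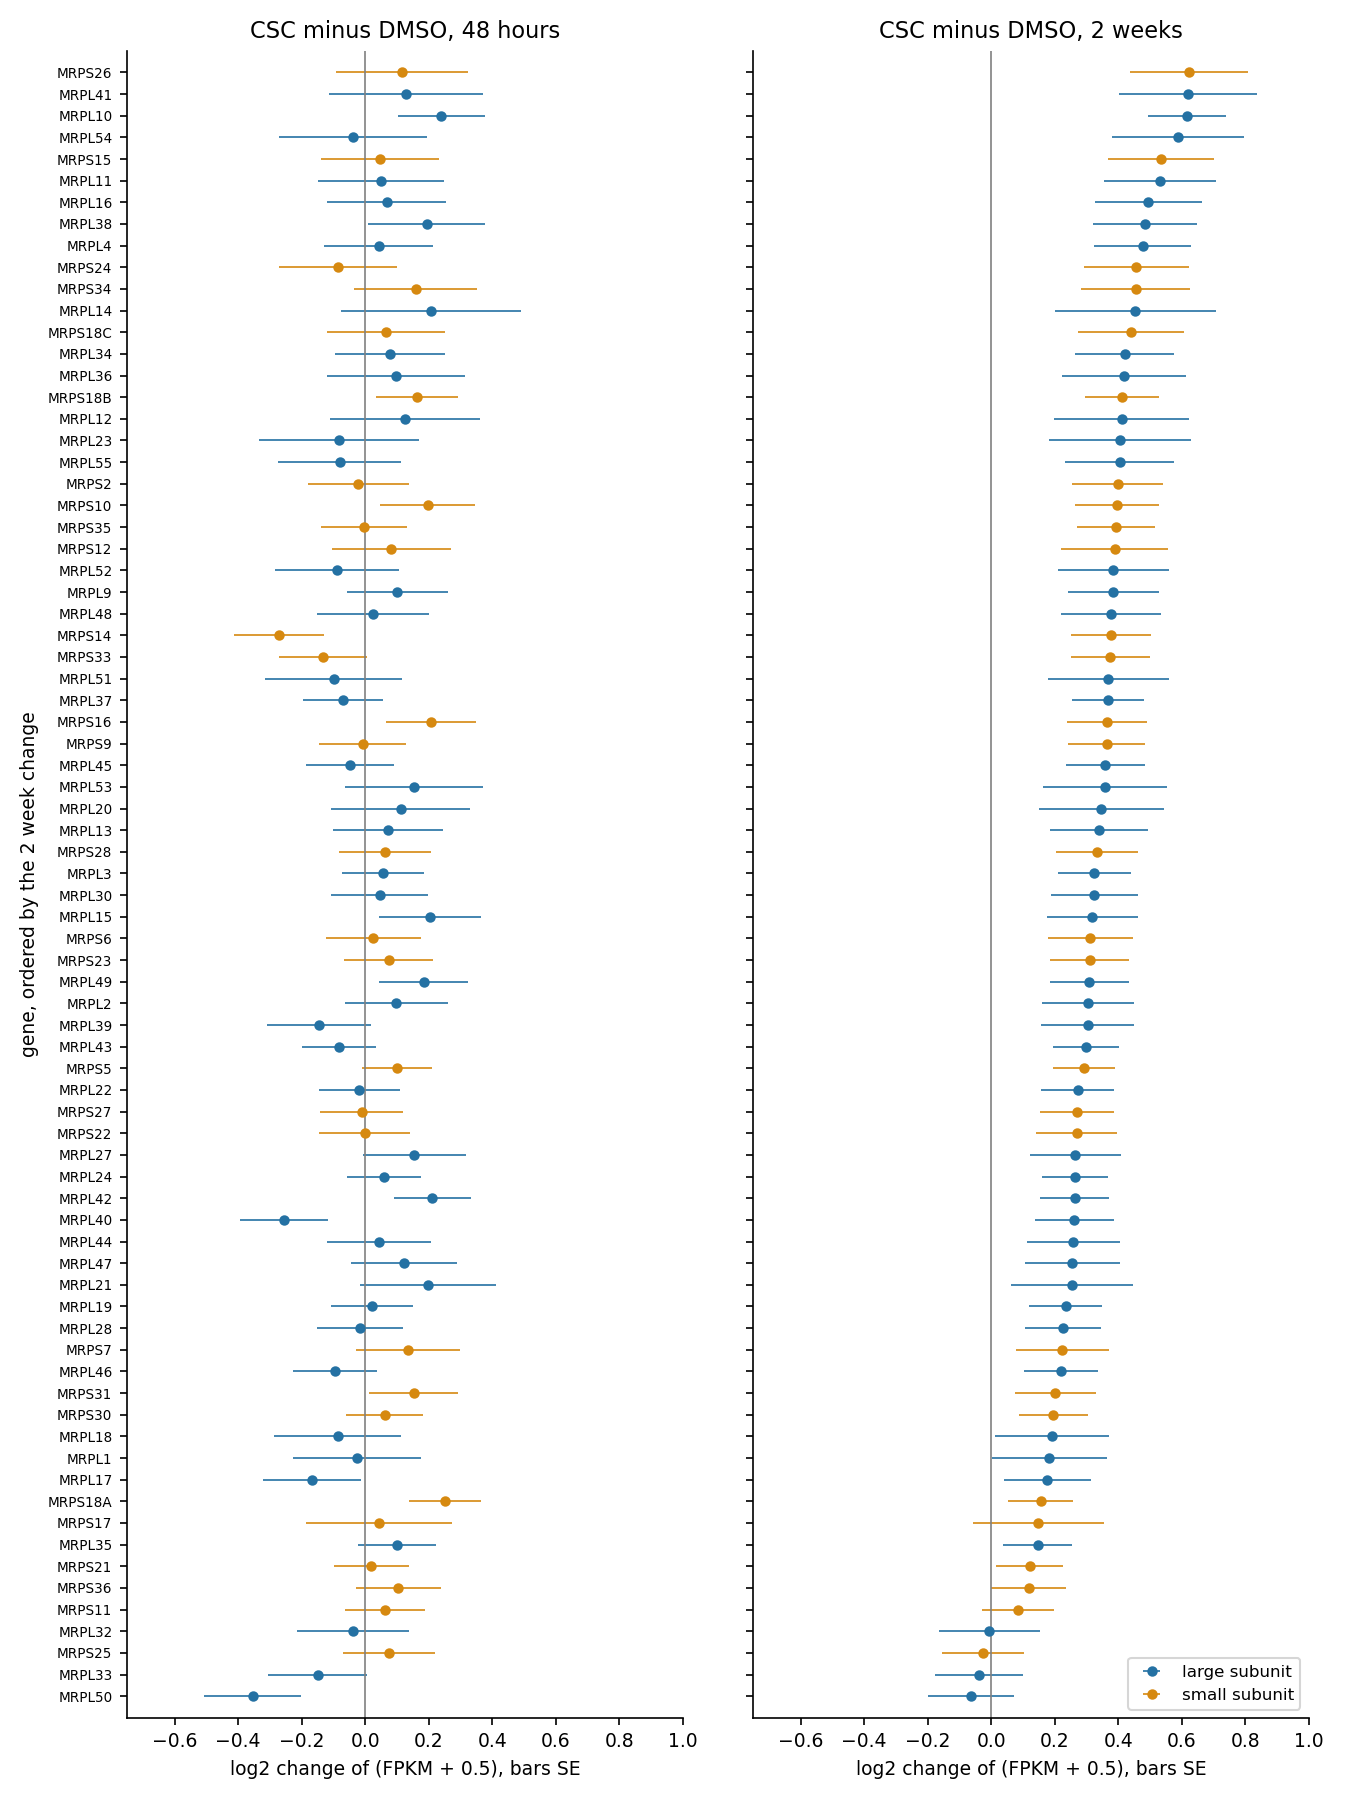
Log2 difference of FPKM + 0.5 between CSC and DMSO for each of the 76 genes at 48 hours (left) and 2 weeks (right), with 1 SE on each side, 3 CSC libraries against 2 DMSO libraries at 48 hours and 3 against 3 at 2 weeks, coloured by subunit. At 48 hours the genes spread around 0, with 49 of 76 positive, and at 2 weeks 72 of 76 lie to the right of 0.

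After 2 weeks of CSC nearly all of the genes stood somewhat higher than in vehicle cells, and MRPL10 was the member that passed the test. MRPL10 (chromosome 17, 45900638 to 45908907 on hg19) encodes the base of the large subunit stalk, to which MRPL12 attaches. It had 29.9, 21.8 and 27.3 FPKM in CSC cells at 2 weeks, against 17.2, 16.5 and 16.8 FPKM in DMSO cells. All CSC libraries lay above all DMSO libraries, and the DMSO libraries lay within 1 FPKM of each other. The means were 26.3 ± 4.11 FPKM in CSC cells and 16.8 ± 0.373 FPKM in DMSO cells (SD, n = 3 each), a 1.53-fold rise, with a log2 change of 0.62 ± 0.12 (SE) and an adjusted p of 0.0136 in limma. At 48 hours it had 18.6, 19.3 and 22.9 FPKM in CSC cells, against 17.0 and 17.0 FPKM in DMSO cells, a log2 difference of 0.24 with an adjusted p of 0.72 in limma. The 2-week call was lost when any of 5 libraries was left out, with adjusted p in limma of 0.0503 to 0.0600 without a DMSO 2 weeks library, 0.0584 when CSC replicate 1 at 2 weeks was left out and 0.0708 when CSC replicate 3 was. MRPL12 itself had 149, 80.1 and 101 FPKM in CSC cells, against 84.2, 83.4 and 73.2 FPKM in DMSO cells, and the groups overlapped (log2 difference 0.41 ± 0.21 SE, adjusted p = 0.25 in limma).

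Of the 76 genes limma called 1 higher (1.32%), against 3.01% of all tested genes, and 0 lower, against 2.4%, so the share called was not above that of all genes. At an unadjusted p under 0.05, 42 members were higher and 0 lower, against 2153 higher and 922 lower of the 12506 tested genes (24.6% in either direction). In limma 13 members had an adjusted p under 0.1, a threshold at which no share of all tested genes was computed. The log2 differences were positive for 72 members (94.7%), against 65.1% of all tested genes, and negative for 4, against 34.9%. Their median was 0.32, a 1.25-fold difference, against 0.09 for all tested genes, and single genes ran from 0.957-fold to 1.54-fold. CSC libraries lay wholly above DMSO libraries for 33 members (43.4%), against 20.3% of all genes, and wholly below for 0, against 9.84%. Leaving out CSC 2 weeks replicate 1 brought the members' median to 0.22, against 0.06 for all tested genes, and the called members to 0. Leaving out CSC 2 weeks replicate 2 brought the median to 0.42 and the called members to 27 (35.5%), against 10.5% of all genes. Without CSC 48 hours replicate 3, which is in neither group, 4 members were called (5.26%), against 5.46% of all genes. With the replicate number as a block, 7 members were called (9.21%), against 4.76% of all genes.

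Among mitochondria-specific proteins of the small subunit, MRPS26 had 78.0, 43.6 and 59.0 FPKM in CSC cells at 2 weeks, against 41.5, 36.3 and 36.0 FPKM in DMSO cells. It had the largest difference of the members (log2 0.62 ± 0.18 SE, adjusted p = 0.069 in limma). MRPS18B, which sits on 7 listed loci of which the 6 on alternative haplotypes stood at 0, had 26.4, 22.7 and 25.6 FPKM in CSC cells, against 20.1, 19.2 and 16.5 FPKM in DMSO cells. In both genes all CSC libraries lay above all DMSO libraries, and MRPS18B had a log2 difference of 0.41 ± 0.12 (SE) and an adjusted p of 0.058 in limma. MRPS34, which the small subunit needs for its stability, had 89.1, 54.8 and 68.4 FPKM in CSC cells, against 55.7, 53.7 and 43.0 FPKM in DMSO cells. Its lowest CSC library lay under its highest DMSO library.

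In the large subunit MRPL37 had 37, 28.0 and 31.9 FPKM in CSC cells at 2 weeks, against 26.0, 24.6 and 23.8 FPKM in DMSO cells, and the groups did not overlap (log2 difference 0.37 ± 0.11 SE, adjusted p = 0.076 in limma). MRPL44, a mitochondria-specific protein with a ribonuclease III-like fold, had 20.9, 14 and 16.5 FPKM in CSC cells, against 15.0, 13.8 and 13.4 FPKM in DMSO cells, and the groups overlapped. At the other end of the range, the 4 genes with negative log2 differences were MRPL50 (-0.06), MRPL33 (-0.04), MRPS25 (-0.03) and MRPL32 (-0.01). MRPL50 had 31.8, 21.9 and 26.0 FPKM in CSC cells, against 27.4, 29.6 and 25.6 FPKM in DMSO cells, and MRPL33 had 93.5, 82.4 and 80.0 FPKM in CSC cells, against 78.4, 111 and 77.0 FPKM in DMSO cells. In both the CSC and DMSO values were interleaved. MRPL32, which a mitochondrial protease trims before it joins the ribosome, and MRPL41 were named after their values were seen. MRPL41 had 111, 61.0 and 70.0 FPKM in CSC cells, against 58.6, 50.4 and 43.9 FPKM in DMSO cells (log2 difference 0.62, adjusted p = 0.11 in limma).

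**Figure D2:**
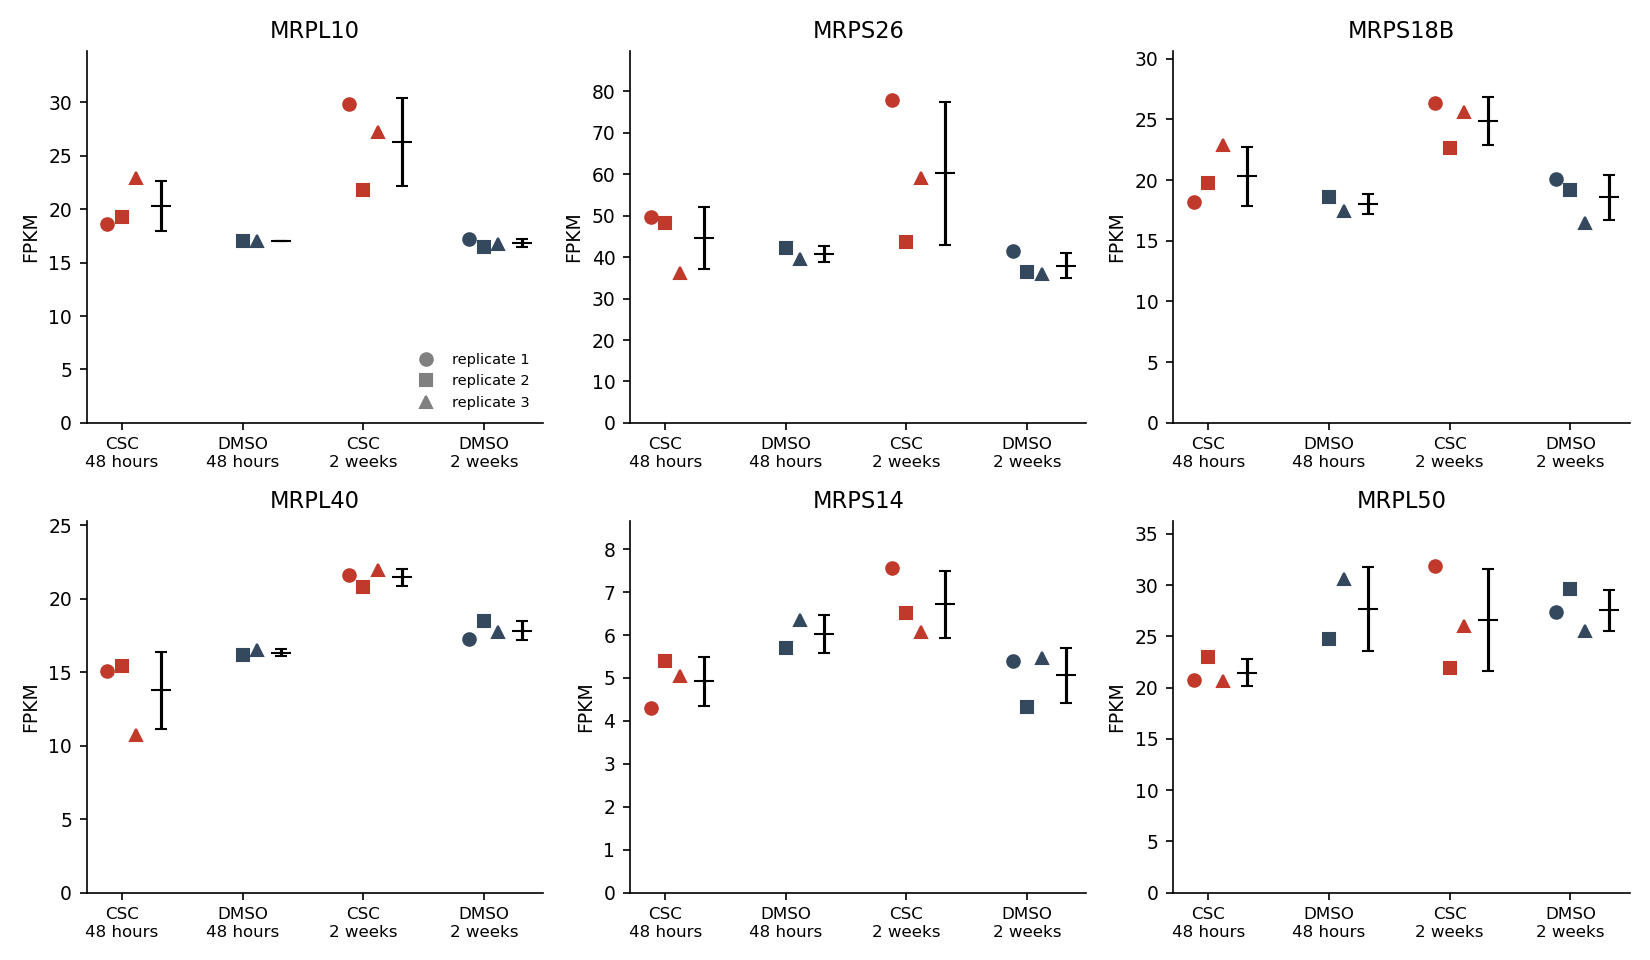
FPKM of 6 genes in each of the 11 libraries, with the mean and SD of each group to the right of its points (n = 2 for DMSO at 48 hours, n = 3 otherwise), red for CSC and dark blue-grey for DMSO, the marker giving the replicate number. MRPL10 stands at 21.8 to 29.9 FPKM in CSC cells at 2 weeks and at 16.5 to 17.2 FPKM in DMSO cells, while MRPL50 overlaps between the groups.

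The large and the small subunit, and both classes of protein, had similar medians at 2 weeks. The median log2 difference of CSC over DMSO was 0.32 in the large and 0.33 in the small subunit, positive for 44 of 47 and 28 of 29 genes. It was 0.33 for bacterial families and 0.31 for mitochondria-specific proteins. Promoters with the ETS letters had a median of 0.35 (28 genes), against 0.31 for those without (39 genes), and those with the YY1 letters 0.31 (20 genes), against 0.33 without (47 genes). Those with the partial NRF1 site had a median of 0.27 (7 genes), against 0.34 without (60 genes). These differences between classes were not tested. Of the large subunit proteins with small subunit symbols, MRPS18A had 13.2, 11.6 and 11.2 FPKM in CSC cells at 2 weeks, against 10.1, 12 and 10.1 FPKM in DMSO cells. MRPS30 had 23.3, 17.9 and 18.7 FPKM in CSC cells, against 18.0, 17.0 and 16.8 FPKM in DMSO cells. In both the groups overlapped. MRPS36 had 8.06, 8.78 and 10.1 FPKM in CSC cells, against 8.29, 8.97 and 7.44 FPKM in DMSO cells, and its groups overlapped.

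Summed over the large subunit genes, FPKM was 1824, 1275 and 1438 in CSC cells at 2 weeks, against 1249, 1253 and 1085 in DMSO cells. Over the small subunit genes it was 1074, 787 and 912 in CSC cells, against 754, 740 and 672 in DMSO cells. In both sums every CSC library lay above every DMSO library, CSC replicate 2 by the least. At 48 hours the large subunit summed to 1262, 1235 and 991 in CSC cells, against 1165 and 1102 in DMSO cells, and the small subunit to 769, 773 and 661 in CSC cells, against 724 and 681 in DMSO cells, with overlap in both. The ratio of the large to the small sum was 1.63 ± 0.0616 in CSC cells and 1.65 ± 0.0401 in DMSO cells at 2 weeks (SD, n = 3 each), and 1.58 ± 0.0724 in CSC cells (SD, n = 3) and 1.61 ± 0.0052 in DMSO cells (SD, n = 2) at 48 hours. By library it was 1.7, 1.62 and 1.58 in CSC cells and 1.66, 1.69 and 1.61 in DMSO cells at 2 weeks, and 1.64, 1.60 and 1.5 in CSC cells and 1.61 and 1.62 in DMSO cells at 48 hours. The CSC and DMSO ratios overlapped at both times. The means differed by less than the SD of either group at 2 weeks, and at 48 hours by less than the SD of the CSC libraries but more than that of the 2 DMSO libraries.

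**Figure D3:**
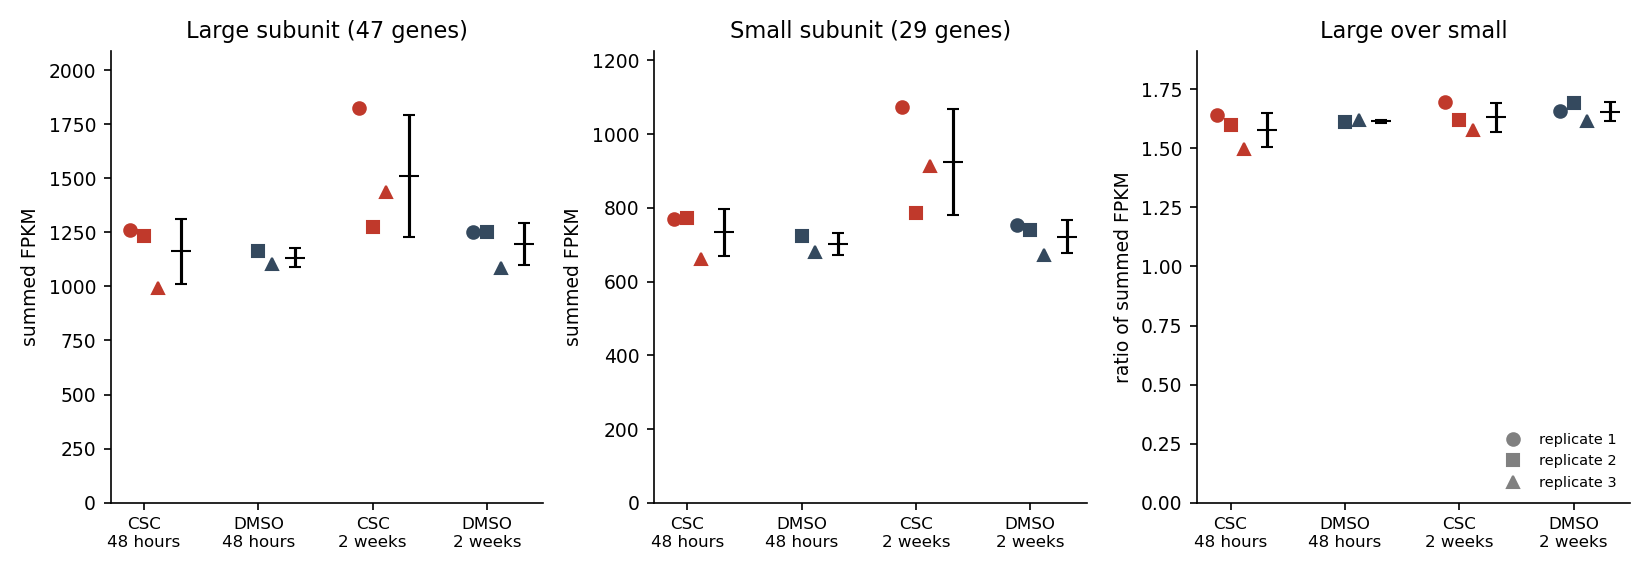
Summed FPKM of the 47 large subunit genes (left), of the 29 small subunit genes (middle) and their ratio (right) in each of the 11 libraries, with the mean and SD of each group beside its points (n = 2 for DMSO at 48 hours, n = 3 otherwise), red for CSC and dark blue-grey for DMSO. Both sums are highest in CSC 2 weeks replicate 1, and the ratio stays between 1.5 and 1.7 in all libraries.

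The CSC effect at 2 weeks minus that at 48 hours was positive for 74 of the 76 genes (97.4%), against 64.4% of all tested genes, with a median of 0.28 against 0.09. Limma called 0 members higher, against 0.008% of all tested genes, and 0 lower, against 0.032%. At an unadjusted p under 0.05 in limma, 7 of the 76 members were higher and 0 lower. Of the 12506 tested genes 615 were higher and 261 lower (7% in either direction). The effects at the 2 times have no library in common. MRPL40, MRPL45 and MRPS14 were the 3 members whose CSC libraries lay wholly below the DMSO libraries at 48 hours and wholly above them at 2 weeks, a pattern of 0.704% of all tested genes. MRPL10, MRPL24, MRPS5 and MRPS16 were the 4 members whose CSC libraries lay wholly above the DMSO libraries at both times, a pattern of 3.86% of all tested genes, MRPS5 and MRPS16 being named after their values were seen. Of the 4, MRPL10 at 2 weeks was the 1 call by limma. MRPL24, a conserved protein near the tunnel exit, had 62.2, 51.2 and 52.5 FPKM in CSC cells, against 47.4, 47.8 and 42.3 FPKM in DMSO cells at 2 weeks, and 38.5, 40.0 and 39.3 FPKM in CSC cells, against 36.9 and 38.3 FPKM in DMSO cells at 48 hours.

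Between 48 hours and 2 weeks in CSC cells, 12 members rose by limma's test (15.8%), against 12.3% of all tested genes called higher, and 0 fell, against 1.38%. The 12 were MRPL17, MRPL24, MRPL37, MRPL40, MRPL45, MRPL51, MRPL54, MRPS14, MRPS24, MRPS28, MRPS33 and MRPS35. MRPL51, a mitochondria-specific protein of the large subunit, had 122, 86.7 and 89.1 FPKM at 2 weeks, against 70.7, 66.9 and 40.5 FPKM at 48 hours. It had the largest change (log2 0.76 ± 0.19 SE, adjusted p = 0.030 in limma). MRPL40 had 21.6, 20.8 and 22.0 FPKM at 2 weeks, against 15.1, 15.4 and 10.8 FPKM at 48 hours (log2 change 0.64 ± 0.12 SE, adjusted p = 0.016 in limma). MRPL54 had 21.1, 12.3 and 14.6 FPKM at 2 weeks, against 10.4, 8.13 and 8.72 FPKM at 48 hours. In these 3 genes all 2-week libraries lay above all 48-hour libraries.

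MRPS35 had 52.7, 38.5 and 49.6 FPKM in CSC cells at 2 weeks, against 30.4, 33.0 and 31.4 FPKM at 48 hours (log2 change 0.55 ± 0.12 SE, adjusted p = 0.021 in limma). MRPS24, the counterpart of a bacterial protein at the messenger RNA entry, had 91.3, 58.0 and 72.1 FPKM at 2 weeks, against 57.0, 51.9 and 40.6 FPKM at 48 hours. Both showed no overlap between the times. MRPL45, which lies where the ribosome meets the inner membrane, had 36.3, 26.5 and 26.4 FPKM at 2 weeks, against 21.5, 22.2 and 21.8 FPKM at 48 hours. MRPL17, which carries the NRF1 core in its promoter, had 18.9, 15.3 and 16.1 FPKM at 2 weeks, against 13.1, 13.7 and 9.52 FPKM at 48 hours. Over all members the median log2 change was 0.33, against 0.19 for all tested genes, with 75 of 76 positive (98.7%, against 77%). The 2-week libraries lay wholly above the 48-hour libraries for 36 members (47.4%), against 28.4% of all genes, and wholly below for 0, against 4.47%. At an unadjusted p under 0.05, 43 members were higher and 0 lower, against 3798 higher and 505 lower of the 12506 tested genes (34.4% in either direction). All 12 calls were lost under each of the 4 other scalings of the libraries, in a fit of only the CSC libraries, and without CSC 2 weeks replicate 1. Those scalings called 0.568% to 1.49% of all genes higher, and the fit without CSC 2 weeks replicate 1 called 0.915%. The share of all genes in the fit of only the CSC libraries is not given. Without CSC 2 weeks replicate 2, 37 members were called (48.7%), against 19.7% of all genes, and without replicate 3, 2 members (2.63%), against 4.51%. Without CSC 48 hours replicate 1 the count was 7 (9.21%), against 6.41% of all genes, without replicate 2 it was 1 (1.32%), against 2.06%, and without replicate 3 it was 5 (6.58%), against 11.7%. Leaving out a DMSO library, which is in neither group, gave 7 members (9.21%), against 8.98% and 9% of all genes, for the 48-hour libraries. For the 2-week replicates 1, 2 and 3 it gave 5, 4 and 8 members (6.58%, 5.26% and 10.5%), against 6.63%, 5.64% and 9% of all genes. In these fits the members' share called thus lay on both sides of that of all genes.

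In DMSO cells at 2 weeks against 48 hours limma called 0 members higher, against 0.656% of all tested genes, and 0 lower, against 0.112%. With an unadjusted p under 0.05 in limma, 2 members were higher and 0 lower, against 1374 and 227 of the 12506 tested genes. The median log2 difference was 0.06, against 0.09 for all tested genes, and 50 of 76 were positive, against 68.3% of all tested genes, and 26 negative, against 31.7%. The median became negative under each of the 4 other scalings (-0.03 to -0.08) and with the replicate number as a block (-0.005). The comparisons over time share libraries with those of CSC against DMSO and are not independent of them.

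The size of these differences depended on how the libraries were put on 1 scale. CSC 2 weeks replicate 1 was the highest of the 11 libraries for 65 of the 76 members, and CSC 2 weeks replicate 2 was the lowest of its group for 66. Scaling to a common sum of FPKM gave a 2-week median log2 difference of 0.19 for the members and -0.03 for all genes. Without RMRP and RPPH1 in the sum, the medians were 0.16 for the members and -0.06 for all genes. With median-of-ratios scaling they were 0.23 and 0.01, and with quantile normalization 0.23 and 0.02. The members lay 0.21 to 0.23 above all genes in each of these, as with the deposited values (0.23), and 66 to 72 of the 76 differences were positive. The common sums and median of ratios multiply all genes of a library by the same factor. Beyond the added 0.5 they could therefore not change this gap, and of these scalings only quantile normalization could. MRPL10 was called under each of these scalings, with adjusted p of 0.0120 to 0.0320 in limma.

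Members are short, with a median canonical transcript of 1242 bases, against 3288 bases for the 11129 tested genes with a transcript length (89.0%). In CSC 2 weeks replicate 1 the members' median stood 0.45 above the mean of the 11 libraries on the log2 scale, that of genes with a transcript under 1 kb 0.50 and that of all tested genes 0.18. In CSC 2 weeks replicate 2 the same medians were 0.06, 0.07 and 0.02, and in replicate 3 they were 0.24, 0.21 and 0.12. In DMSO cells at 2 weeks they were 0.01, 0.01 and 0.06 for replicate 1, -0.04, 0.00 and 0.03 for replicate 2, and -0.18, -0.15 and -0.05 for replicate 3. The medians of the short genes and of the members thus moved together from library to library. Members were not taken out of the short genes, so part of this likeness can be built in. With the trend on transcript length removed over those 11129 genes, the members' median at 2 weeks was 0.22, against 0.10 for all genes, a gap of 0.12 in place of 0.23, and MRPL10 remained the called member (adjusted p = 0.0123 in limma). The part of transcript length and of single libraries in the members' difference was otherwise not tested.

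**Figure D4:**
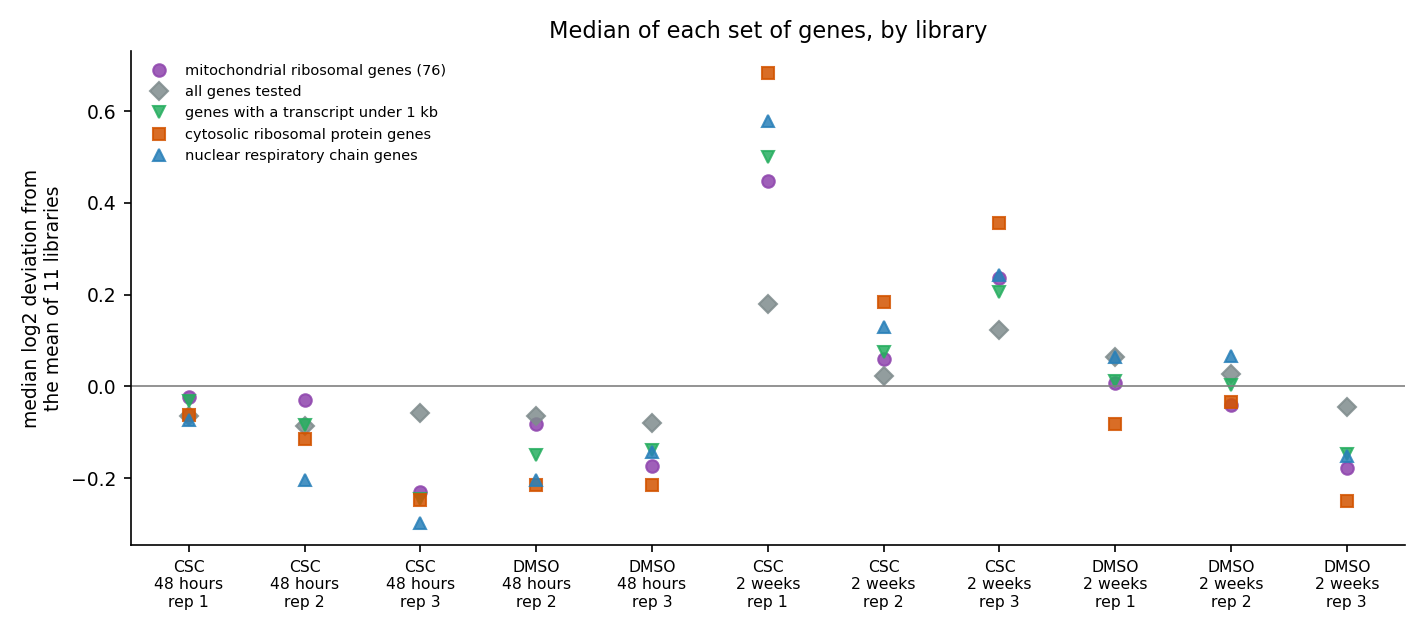
Median log2 deviation from the mean of the 11 libraries, in each library, of the 76 mitochondrial ribosomal genes, all tested genes, genes with a transcript under 1 kb, cytosolic ribosomal protein genes and nuclear respiratory chain genes (with those of ATP synthase). All 5 sets lie highest in CSC 2 weeks replicate 1, where the mitochondrial ribosomal genes stand at 0.45. In CSC 48 hours replicate 3 they stand at -0.23 and all tested genes at -0.06.

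**Figure D5:**
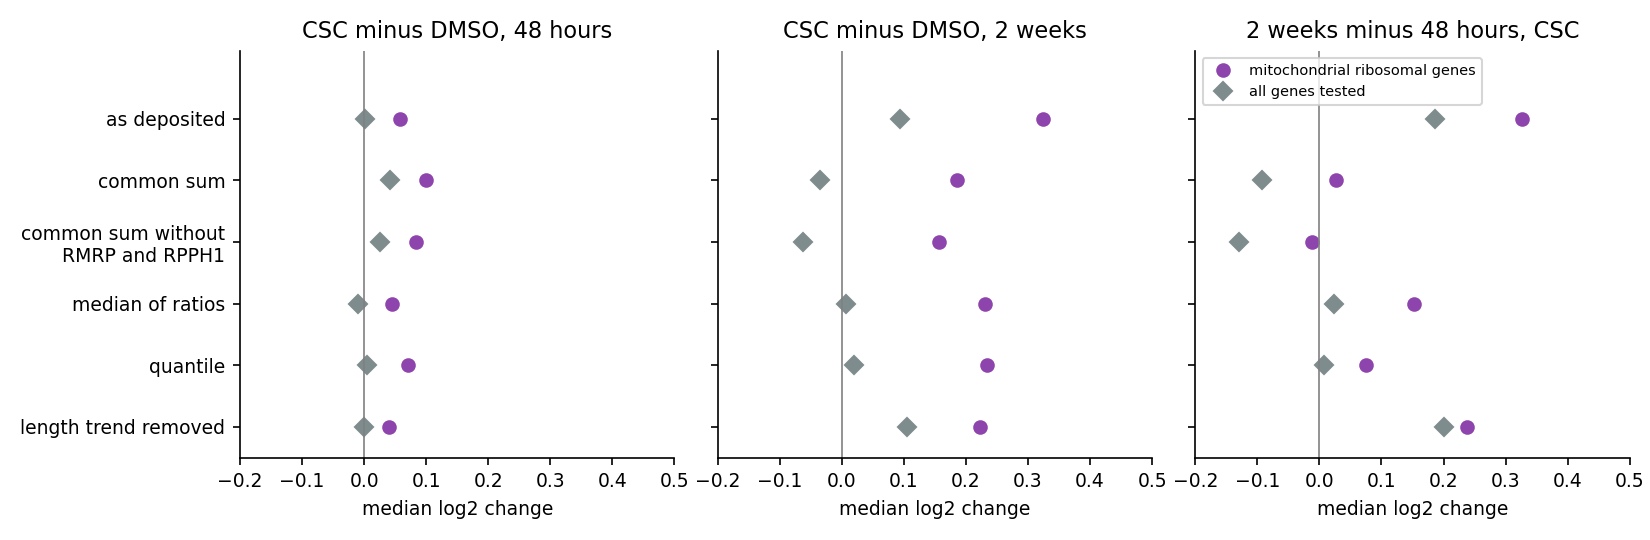
Median log2 change of the 76 genes (circles) and of all tested genes (diamonds) under 6 treatments of the values, for CSC minus DMSO at 48 hours (left) and 2 weeks (middle) and for 2 weeks minus 48 hours in CSC cells (right). At 2 weeks the members lie between 0.16 and 0.32 and above all genes in each, and in the right panel they lie between -0.01 and 0.33.

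Other parts of the mitochondrial gene expression machinery had medians of 0.12 to 0.26 on the log2 scale at 2 weeks, and their counts stand beside 65.1% of all tested genes positive and 3.01% called higher. The 7 ribosomal subunits under other symbols had a median log2 difference of 0.26, all positive and 0 called. Among them ICT1, a peptidyl-tRNA hydrolase built into the large subunit, averaged 37.1 ± 6.61 FPKM in CSC cells and 27.1 ± 0.748 FPKM in DMSO cells (SD, n = 3 each), with an adjusted p of 0.062 in limma, and GADD45GIP1 had 53.2 ± 17.5 FPKM in CSC cells and 35.0 ± 3.56 FPKM in DMSO cells (SD, n = 3 each). The 19 translation factors had a median of 0.25, with 16 positive and 0 called. MTIF3, an initiation factor, averaged 9.25 ± 1.16 FPKM in CSC cells and 6.32 ± 0.589 FPKM in DMSO cells (SD, n = 3 each; adjusted p = 0.066, limma). MTO1, which modifies mitochondrial tRNAs, averaged 4.70 ± 0.501 FPKM in CSC cells and 3.68 ± 0.137 FPKM in DMSO cells (SD, n = 3 each). The elongation factor TUFM averaged 104 ± 9.91 FPKM in CSC cells and 85.9 ± 4.62 FPKM in DMSO cells, and LRPPRC, which stabilises mitochondrial messenger RNA, 65 ± 5.94 FPKM in CSC cells and 59.5 ± 3.07 FPKM in DMSO cells (SD, n = 3 each), both above the 0.05 threshold in limma. The 24 assembly factors had a median of 0.21, with 22 positive and 0 called, the smallest p being that of NOA1, a GTPase of the small subunit (14.1 ± 1.98 FPKM in CSC cells, 10.4 ± 0.561 FPKM in DMSO cells, SD, n = 3 each; adjusted p = 0.055, limma). MTG1, a GTPase of the large subunit, followed at 17.3 ± 3.01 FPKM in CSC cells and 12.8 ± 0.723 FPKM in DMSO cells (SD, n = 3 each).

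The 20 mitochondrial aminoacyl-tRNA synthetases and tRNA amidation genes, which charge the tRNAs used by this ribosome, had a median of 0.12, with 17 positive and 0 called. The smallest p were those of SARS2, which charges serine tRNA and overlaps the MRPS12 locus, at 15.4 ± 1.75 FPKM in CSC cells and 12.1 ± 1.01 FPKM in DMSO cells, and TARS2, which charges threonine tRNA, at 10.1 ± 0.854 FPKM in CSC cells and 8.39 ± 1.14 FPKM in DMSO cells (SD, n = 3 each). The 17 genes of mitochondrial DNA upkeep and transcription had a median of 0.13, with 15 positive, 1 called higher and 0 lower. The called gene was TOP1MT, the mitochondrial topoisomerase I, at 16.7 ± 2.64 FPKM in CSC cells and 11.9 ± 0.0231 FPKM in DMSO cells (SD, n = 3 each; adjusted p = 0.0465, limma). The lowest difference was that of MTERF, named after its values were seen (log2 -0.39). It averaged 4.03 ± 0.149 FPKM in CSC cells and 5.46 ± 0.600 FPKM in DMSO cells (SD, n = 3 each; adjusted p = 0.085, limma). TFAM, which packages mitochondrial DNA, averaged 17.9 ± 2.25 FPKM in CSC cells and 15.0 ± 1.10 FPKM in DMSO cells, and POLRMT, its RNA polymerase, 19.0 ± 2.94 FPKM in CSC cells and 18.4 ± 1.22 FPKM in DMSO cells (SD, n = 3 each), neither called by limma. Of 10 regulators of mitochondrial gene expression, 9 were tested, all 9 were positive, and 0 were called, with a median of 0.19. NRF1 averaged 4.62 ± 0.912 FPKM in CSC cells and 3.90 ± 0.210 FPKM in DMSO cells, and GABPA, the DNA-binding subunit of GABP, 6.72 ± 0.618 FPKM in CSC cells and 5.84 ± 0.737 FPKM in DMSO cells (SD, n = 3 each). PPRC1, a coactivator, averaged 15.7 ± 1.45 FPKM in CSC cells and 14.8 ± 0.694 FPKM in DMSO cells, and MYC 67.1 ± 7.16 FPKM in CSC cells and 56.1 ± 2.70 FPKM in DMSO cells (SD, n = 3 each). The smallest p among the regulators were those of ESRRA, a nuclear receptor, at 13.3 ± 3.04 FPKM in CSC cells and 10.5 ± 1.15 FPKM in DMSO cells, and YY1, at 37.6 ± 6.23 FPKM in CSC cells and 31.1 ± 2.47 FPKM in DMSO cells (SD, n = 3 each). PPARGC1A, a coactivator of mitochondrial genes, was named after its values were seen. It was not tested because it lay under 1 FPKM, and it was listed at 0.0329 ± 0.0131 FPKM in CSC cells and 0.568 ± 0.111 FPKM in DMSO cells at 2 weeks (SD, n = 3 each).

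For scale, the 82 tested genes of the cytosolic ribosome had a median log2 difference of 0.53 at 2 weeks with 27 called higher. The 76 nuclear respiratory chain genes, here counted with those of ATP synthase, had one of 0.31 with 3 called higher. The background is the 3.01% given above. At 48 hours the medians were 0.07 and -0.01, with 0 called higher in each. The members' median of 0.32 at 2 weeks thus lay near that of the respiratory chain genes, and the differences between these lists were not tested.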

How the data were processed

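RNA of A549 cells was depleted of ribosomal RNA, sequenced on an Illumina instrument and aligned to hg19 with TopHat2 version 2.0.9, per the labels' protocols, and CASAVA version 1.7.1a5 appears in the submitters' processing notes. No source used here names the quantifier, annotation or strand setting. The authors deposited FPKM with lower and upper bounds per gene and locus, in 25275 lines for each of 11 libraries. FPKM were summed over loci. One gene with a failed estimate was left out. FPKM are not counts, so log2(FPKM + 0.5) was tested with limma version 3.58.1 in R version 4.3.3, in 1 fit of 11 libraries and 4 groups without a replicate block, with a mean-variance trend. The 12506 genes at 1 FPKM or more in at least 2 libraries were tested, and all 76 members passed. Calls needed a Benjamini-Hochberg adjusted p under 0.05 over all tested genes. Fold changes on the log2(FPKM + 0.5) scale understate changes of low genes. The procedure was tested on simulated data. Relative depth came from the bounds of 12794 lines. Libraries were grouped by title. Named members were those called (at most 12 a direction), the 4 with the smallest p in each CSC comparison, the 3 highest and 3 lowest of each subunit, and MRPS18A, MRPS30, MRPS36, MRPL12 and MRPL44. Of each other list they were those called in a CSC comparison or else the 2 with the smallest p, with TUFM, TFAM, POLRMT, LRPPRC, PPRC1, NRF1, GABPA and MYC. The members, lists and tests were chosen with earlier results of these data known. Alternatives covered pseudocounts, filters, scalings, replicate block, libraries in the fit, robust estimation, loci and each library left out, and the removal of a transcript length trend (lowess, span 0.3) was chosen after seeing the data.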

Additional observations from a re-analysis of the deposited data

Results flagged for a closer look

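In 3 of the 76 members, against 0.704% of all tested genes, every CSC library lay below every DMSO library at 48 hours and above every DMSO library at 2 weeks. For MRPS14 the CSC effect at 2 weeks minus that at 48 hours was 0.65 on the log2 scale, with 7.57, 6.5 and 6.07 FPKM in CSC cells and 5.41, 4.33 and 5.45 FPKM in DMSO cells at 2 weeks. For MRPL40 it was 0.52, with 21.6, 20.8 and 22.0 FPKM in CSC cells and 17.2, 18.5 and 17.7 FPKM in DMSO cells at 2 weeks. For MRPL45 it was 0.41, with 36.3, 26.5 and 26.4 FPKM in CSC cells and 23.1, 24.6 and 20.8 FPKM in DMSO cells at 2 weeks, and 21.5, 22.2 and 21.8 FPKM in CSC cells and 22.6 and 22.6 FPKM in DMSO cells at 48 hours. The interaction itself, tested in limma over all genes, gave adjusted p of 0.57, 0.65 and 0.70, so these differences between the times did not pass the test.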

How the results depend on the processing

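Of 3570 alternative values of the 30 named members, 3219 kept their direction and their side of the threshold, 158 lost the call, 25 gained one, and 168 changed sign, 95 of them under the 4 other scalings and 12 in the comparison of CSC with DMSO at 2 weeks. None of the 168 was a call before or after (0). Only values of MRPL10 at 2 weeks and of the 12 members called over time in CSC cells could lose a call. Most of the 3570 values belonged to comparisons without a call, so the 3219 do not measure how stable the calls were. The count of members called higher in CSC cells at 2 weeks against 48 hours (12) was 3 without a filter and 0 under a common sum, a common sum without RMRP and RPPH1, median of ratios, quantile normalization and a fit of only the libraries compared, and 0 to 37 when a library was left out. The count for CSC against DMSO at 2 weeks (1) was 2 with a filter at 5 FPKM (2.63%, against 4.63% of all genes). When a library was left out it ran from 0 (against 0.585% to 1.03% of all genes) to 27 (35.5%, against 10.5%). Under the common sum, without and with removal of RMRP and RPPH1 from it, the members' median log2 difference was 0.186 and 0.156 for CSC against DMSO at 2 weeks, 0.0987 and 0.0853 for the difference of the CSC effects (0.142 with quantile normalization), and 0.0270 and -0.0126 for time in CSC cells (0.152 with median of ratios, 0.0749 with quantile normalization). For time in DMSO cells it was -0.0823 without RMRP and RPPH1. The log2 ratio of summed FPKM for time in DMSO cells (0.06) was -0.0581, -0.0850, -0.0325 and -0.0759 under the 4 scalings, and for time in CSC cells (0.36) it was 0.0434, 0.00525 and 0.0750 under the common sum, the sum without RMRP and RPPH1 and quantile normalization. Moving MRPS18A and MRPS30 to the large subunit and leaving out MRPS36 gave ratios of the large to the small sum of 1.7 for CSC and 1.73 for DMSO at 48 hours, and 1.74 for CSC and 1.78 for DMSO at 2 weeks, and ratios of medians were 0.792 and 0.788, and 0.878 and 0.831. Beyond their construction, the cause of these shifts was not tested. The labels do not say whether same-numbered libraries shared more than a number. Their deviations correlated over 0.1 in 5 of 15 pairs (-0.20 to 0.31) and best with their own number in 17 of 30 cases. Replicate 1 of CSC at 2 weeks correlated at 0.31 with that of CSC at 48 hours and 0.22 with that of DMSO at 2 weeks. The 2 DMSO libraries at 48 hours have mirrored deviations, so their pairs are not independent. No share expected by chance was computed, and pairing was not tested. With the replicate block, 7 members (9.21%) were called higher at 2 weeks in place of 1, against 4.76% of all tested genes. The depth in reads is unknown, and groups of 2 or 3 libraries limit the size of difference that could be called.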
